A study of Mus musculus with 6 samples.

Results

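Inflammasomes are protein platforms that switch on inflammatory caspases, and pyroptosis is the lytic cell death that follows when those caspases cut a gasdermin. The 10 genes described here were taken by symbol: the sensors Nlrp3, Nlrp1b, Nlrc4 and Aim2, the Nlrp3 partner Nek7, the adaptor Pycard, the caspases Casp1 and Casp4, and the gasdermins Gsdmd and Gsdme. All 10 were found among the 25755 genes of the table. They were measured by bulk RNA sequencing of whole optic nerves, to compare the injured with the uninjured nerve, in 3 mice that had sham surgery (mice 1, 2 and 3) and 3 that had optic nerve crush (ON-CR, mice 4, 5 and 6). All 6 mice carried the genotype NF1flox/flox;hGFAP-Cre, in which Cre under the human GFAP promoter removes Nf1 from neuroglial progenitors and their descendants, so microglia, which arise outside that lineage, keep the gene, and no mouse with intact glial Nf1 is in the comparison. The labels give an age of 3 months for every mouse. The paper reports that ON-CR led to optic gliomas in this genotype, with greater nerve volume, proliferation and cellularity than after sham surgery. Effects of the injury and of a tumour therefore cannot be told apart here. Whether the sequenced nerves held tumours was not tested. In the study's methods surgery was at 6 weeks of age and analysis at 12 weeks, so the values describe a nerve long after the injury.

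In the canonical pathway a sensor meets a danger or microbial signal in the cytosol and gathers the adaptor ASC, the product of Pycard, into a large speck on which caspase-1 becomes active. Caspase-1 then matures the cytokines IL-1beta and IL-18 and cuts gasdermin D, whose freed end forms pores in the plasma membrane. Mouse caspase-11, the product of Casp4, binds bacterial lipopolysaccharide directly and cuts gasdermin D without a sensor. In the central nervous system microglia and macrophages are the cells best known for building inflammasomes. Transcript levels say nothing about whether the complexes were assembled or the caspases active.

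Values are normalized counts, that is, estimated reads of a gene divided by a factor for the library, and 1 read was worth between 0.885 and 1.06 units. Libraries held 17414589 to 23620019 estimated reads, with each ON-CR library shallower than each sham library. None of the 10 genes had 3 or fewer reads in any library. Some features of the libraries bear on each comparison. Xist, the RNA of the inactive X chromosome, was at 16.7, 2.14 and 30.9 in sham mice 1 to 3 and at 2708, 6357 and 6131 in ON-CR mice 4 to 6. The Y-linked Ddx3y was at 1645, 1291 and 1544 in the former and at 976, 4.19 and 0 in the latter. A difference in sex and the effect of surgery therefore cannot be told apart. The library of ON-CR mouse 4 held both Xist and Y-linked RNA, with Uty at 298 and Kdm5d at 147. The labels name 1 mouse per library, whereas the paper's RNA extraction and qPCR methods give 2 mice per sample. Whether libraries were pooled was not tested. Summed B cell and plasma cell markers reached 98667 in ON-CR mouse 6 and lay between 394 and 2430 in the other mice. Mature oligodendrocyte markers, which define this tissue, were abundant in all libraries, with sums from 631620 to 1848790.

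Of the 10 genes, 0 differed between the groups at an adjusted p at or under 0.05 by limma, a threshold that 2.1% of all genes passed. At an unadjusted p at or under 0.05 there were 5, with Casp1, Casp4, Pycard and Nlrp1b higher after ON-CR and Nek7 lower, against 15.6% of all genes. In a robust limma fit and under voom with sample quality weights, 1 gene passed the adjusted threshold, which was Nek7, with a lower mean after ON-CR, where 2.76% and 2.81% of all genes passed. Without ON-CR mouse 5, 3 genes passed, namely Casp1, Casp4 and Pycard, where 3.32% of all genes passed, and without ON-CR mouse 4 only Nek7 did, where 1.79% passed. The means of 7 genes were higher on the log2 scale and those of 3 lower, with a median log2 fold change of 0.83 over the 10 genes and 0.03 over all genes. An unadjusted p at or under 0.05 with at least a 2-fold higher level was met by 3 genes, Casp1, Casp4 and Nlrp1b, against 3.17% of all genes. That number was 0 without ON-CR mouse 6, 1 without sham mouse 2 and 5 without ON-CR mouse 5, settings in which 4.01%, 3.86% and 6.08% of all genes met the limits in either direction. The values of Casp4, Pycard and Nlrc4 lay above those of all sham mice in all ON-CR mice, as did 10.5% of all genes, and Nek7 lay below, as did 11% of all genes. Without ON-CR mouse 5 the groups were apart for 8 of the 10, and for 34.4% of all genes, against 21.6% of all genes with all mice.

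**Figure D1:**
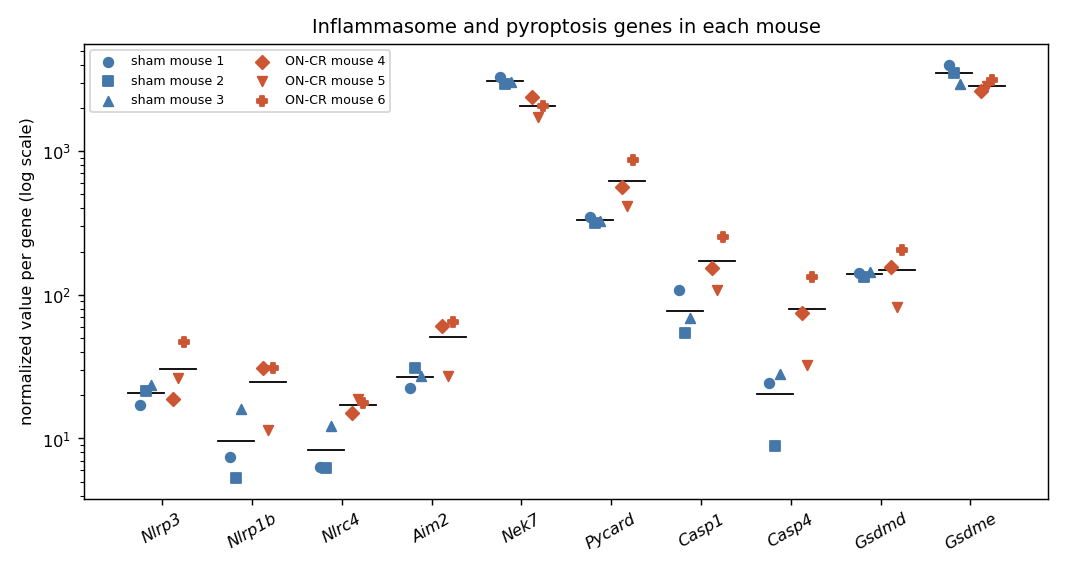
Normalized value (log scale) of each of the 10 genes in sham mice 1 to 3 (blue) and ON-CR mice 4 to 6 (orange), with a black bar at the mean of each group. The groups separate for Nlrc4, Nek7, Pycard and Casp4 and overlap for the other genes.

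The 4 sensors were all scarce, with group means of at most 50.8 units. Nlrp3, whose product answers to many kinds of membrane and ion disturbance, lies at chr11:59541568-59566956 (GRCm38, plus strand). It was at 17.0, 21.2 and 23.5 in sham mice 1 to 3 and at 18.9, 26.2 and 46.7 in ON-CR mice 4 to 6. The groups overlapped, and the ON-CR mean was drawn up by mouse 6. The log2 change estimated by limma was 0.47 ± 0.42 (estimate ± SE, 95% interval -0.46 to 1.40, limma adjusted p = 0.645) and fell to 0.12 without ON-CR mouse 6.

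Nlrp1b encodes a sensor that is best known for its cleavage by anthrax lethal factor, and lies at chr11:71153102-71230733 (minus strand). Its values were 7.43, 5.31 and 16.0 in sham mice 1 to 3, and 30.9, 11.5 and 31.2 in ON-CR mice 4 to 6. ON-CR mice 4 and 6 were above all sham mice, and mouse 5 lay below sham mouse 3. The log2 change estimated by limma was 1.28 ± 0.56 (estimate ± SE, limma adjusted p = 0.31). Its relative Nlrp1a was measured at 0.939 to 3.99 across the 6 mice, and since the counting could divide reads between these similar genes, the value of Nlrp1b is uncertain.

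Nlrc4 encodes the platform protein that NAIP receptors switch on when they bind bacterial flagellin or secretion needles, and lies at chr17:74425438-74459142 (minus strand). Its values were 6.37, 6.20 and 12.2 in sham mice 1 to 3 and 15.0, 18.9 and 17.7 in ON-CR mice 4 to 6. The groups did not overlap, and ON-CR mouse 5, the lowest ON-CR mouse for most of these genes, was here the highest. The log2 change estimated by limma was 1.03 ± 0.47 (estimate ± SE, limma adjusted p = 0.329). Of the NAIP receptors, Naip2 was at 46.6, 19.5 and 35.7 in sham mice 1 to 3 and at 99.7, 72.3 and 127 in ON-CR mice 4 to 6. That is a log2 fold change of 1.57 without overlap between the groups, although the adjusted p by limma was 0.06.

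Aim2 encodes a sensor of double-stranded DNA in the cytosol, at chr1:173350879-173466040 (plus strand). Its values were 22.3, 31.0 and 27.2 in sham mice 1 to 3, and 60.8, 27.3 and 64.4 in ON-CR mice 4 to 6. Mice 4 and 6 were well above the sham range while mouse 5 was inside it. The log2 change estimated by limma was 0.81 ± 0.39 (estimate ± SE, limma adjusted p = 0.352), and 1.20 without ON-CR mouse 5.

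Nek7 was far more abundant than the sensors and had a lower mean after ON-CR. It encodes a mitotic kinase that also binds NLRP3 and is needed for its assembly, and lies at chr1:138482875-138620141 (minus strand), where the antisense gene Gm28501 shares 118 of its exon bases. Its values were 3258, 2928 and 3011 in sham mice 1 to 3 and 2397, 1727 and 2053 in ON-CR mice 4 to 6. The sham mice were close together, and each ON-CR mouse lay below them. The group means were 3065 ± 171 and 2059 ± 335 (SD, n = 3 each). This is a log2 change of -0.59 ± 0.13 (estimate ± SE, 95% interval -0.88 to -0.29, limma adjusted p = 0.0553). This adjusted p lay just outside the threshold and ranged from 0.0349 to 0.29 over the other settings tried. The summed mature oligodendrocyte markers moved the same way, from 1601130 to 680746 in the mean, with 7 of 10 of those genes past an adjusted p of 0.05 and lower, none higher and Mbp and Mog present in every library. The sums were 1293480 to 1848790 in sham mice and 631620 to 746979 in ON-CR mice. Mbp made up most of these sums, and its own mean went from 1058870 to 389019. Other lists of markers fell too. The ratio of mean sums, ON-CR over sham, was 0.749 for fibroblasts and meninges and 0.701 for red blood cells, beside 0.425 for mature oligodendrocytes. No gene of the former lists passed the threshold. Among lists that went the other way were microglia and macrophages, at 1.76, and astrocytes, at 1.18. The part of these changes in the level of Nek7 was not tested. In bulk RNA, fewer cells of a type and less RNA per cell cannot be told apart.

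Among the genes with higher means after ON-CR, the adaptor and the caspases had the lowest p-values. Pycard, at chr7:127989708-127993867 (minus strand), was at 346, 315 and 327 in sham mice 1 to 3. In ON-CR mice 4 to 6 it was at 567, 418 and 872. The sham values were nearly equal, and the ON-CR mice were all higher but far apart. The mean went from 329 ± 15.4 to 619 ± 232 (SD, n = 3 each), a fold change of 1.79 with a 95% interval of 1.26 to 2.56. With all mice the limma adjusted p was 0.101. Leaving out ON-CR mouse 5 gave 0.0122, and leaving out mouse 6 gave 0.281. Gm45205 shares 485 exon bases with Pycard on the other strand and had means of 17.0 and 32.5, so reads of the pair cannot be separated without strand.

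Casp1 and Casp4 are neighbours in the same orientation at chr9:5298517-5307265 and chr9:5308828-5336783 (plus strand), with 1562 bases between them. Casp1 was at 108, 54.0 and 68.6 in sham mice 1 to 3 and at 155, 108 and 253 in ON-CR mice 4 to 6. ON-CR mouse 5 and sham mouse 1 had nearly the same value, and it is this pair that made the groups overlap. The fold change was 2.18, with a 95% interval of 1.28 to 3.71 (limma adjusted p = 0.144). Casp4 was at 24.4, 8.85 and 28.2 in sham mice 1 to 3 and at 74.8, 32.5 and 133 in ON-CR mice 4 to 6. No ON-CR mouse reached down to the sham range, although mouse 5 was only just above sham mouse 3. Its fold change of 3.60 was the largest of the 10 genes, with a wide 95% interval of 1.52 to 8.54 (limma adjusted p = 0.138). The adjusted p was 0.0441 for Casp1 and 0.0305 for Casp4 by limma without ON-CR mouse 5, and 0.427 and 0.43 without ON-CR mouse 6.

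The sequences before the starts of these 3 genes are shown because these had the lowest p-values among the genes with higher means. They shared their order over the ON-CR mice, mouse 6 above mouse 4 above mouse 5, with Aim2, Nlrp1b and Gsdmd, of which Gsdmd had a fold change of 0.995. Each is the 250 bases before a RefSeq start (GRCm38.p6, 5′ to 3′ along the gene's strand), at chr7:127993868-127994117 (minus strand) for Pycard, chr9:5298267-5298516 (plus strand) for Casp1 and chr9:5308599-5308848 (plus strand) for Casp4, the upstream one of its 2 windows. Capitals mark matches, on either strand, to the letters GGNNTTTCC (an NF-kB site core), GAGGAAGT (a site of PU.1 and other ETS factors) or GAAANNGAA (an interferon response core), letters that were chosen after the sequences had been seen.
Pycard: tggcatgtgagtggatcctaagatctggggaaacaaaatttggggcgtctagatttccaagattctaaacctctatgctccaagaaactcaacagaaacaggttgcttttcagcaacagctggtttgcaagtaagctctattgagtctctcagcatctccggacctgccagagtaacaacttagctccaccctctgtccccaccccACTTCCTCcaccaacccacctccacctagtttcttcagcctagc
Casp1: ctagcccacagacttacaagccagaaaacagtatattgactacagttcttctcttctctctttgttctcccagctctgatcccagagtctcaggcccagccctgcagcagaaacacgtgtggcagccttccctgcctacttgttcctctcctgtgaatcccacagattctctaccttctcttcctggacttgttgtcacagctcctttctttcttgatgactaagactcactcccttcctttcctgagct
Casp4: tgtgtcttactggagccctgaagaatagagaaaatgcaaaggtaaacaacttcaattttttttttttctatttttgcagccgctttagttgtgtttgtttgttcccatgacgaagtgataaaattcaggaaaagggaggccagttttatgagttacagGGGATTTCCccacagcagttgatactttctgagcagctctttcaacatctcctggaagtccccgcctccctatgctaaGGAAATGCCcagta

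Casp4 had a pair of NF-kB matches, which begin 92 and 14 bases before the start, and Pycard had a single ETS match that begins 44 bases before it. The Casp1 window held no match to these letters. RefSeq windows were found for 9 of the 10 genes, all but Gsdmd, in 12 windows. The windows of Casp4 overlap, so these form 11 separate stretches, of which 6 held a match to at least 1 of the motifs. Of all windows, 13.9% did. Since the letters were chosen with these sequences in view, the comparison is no test of enrichment. Beside Casp4 and Pycard, Nlrp3 had an NF-kB match in both of its windows, and Aim2 and Nlrp1b an ETS match. The NF-kB letters were present in 4.93% of the 32851 windows of this length in RefSeq, the ETS letters in 2.44% and the interferon response letters in 7.13%. These are matches of letters only, and binding was not measured.

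The gasdermins carry out the last step, and neither passed the test. Gsdmd, at chr15:75862327-75867408 (plus strand), was at 141, 133 and 145 in sham mice 1 to 3 and at 157, 82.8 and 206 in ON-CR mice 4 to 6. The ON-CR mice lay on both sides of a narrow sham range. The fold change was 0.995 with a 95% interval of 0.627 to 1.58 (limma adjusted p = 0.994), so changes within that interval in either direction were not excluded. The interval is not a limit of detection. The sign of the log2 fold change turned with the scaling and with the mice included. Gsdme encodes a gasdermin that the apoptotic caspase-3 cuts, at chr6:50188888-50263862 (minus strand). It was at 4003, 3523 and 2917 in sham mice 1 to 3 and at 2632, 2848 and 3107 in ON-CR mice 4 to 6, with overlap through sham mouse 3 and ON-CR mouse 6. The log2 change estimated by limma was -0.27 ± 0.13 (estimate ± SE, limma adjusted p = 0.362).

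**Figure D2:**
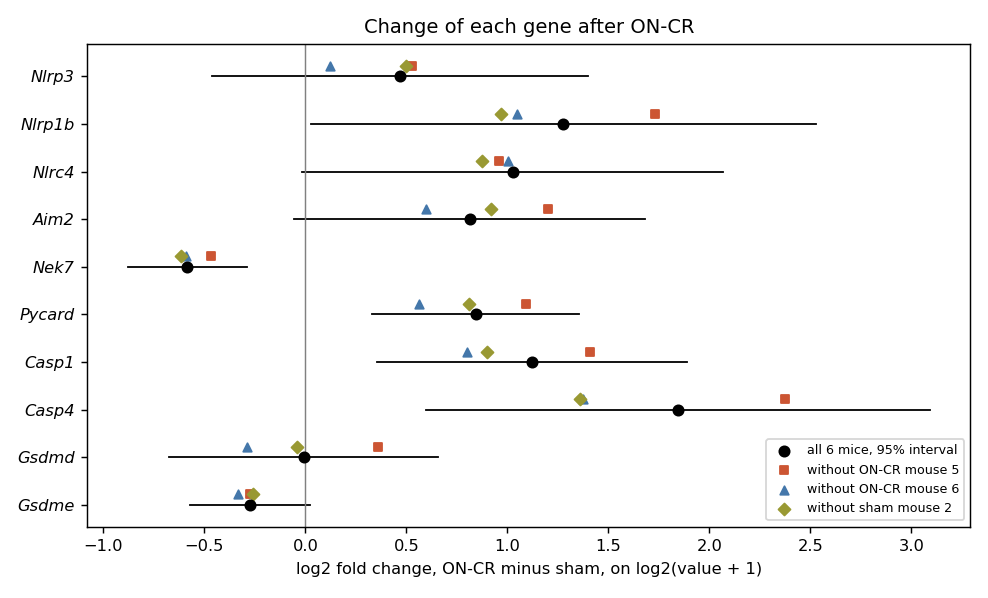
Log2 fold change of each gene after ON-CR on the log2(value + 1) scale, with its 95% interval from limma (black) and the value with a single mouse left out (coloured symbols). Leaving out ON-CR mouse 5 moved Casp4 to 2.38 and leaving out ON-CR mouse 6 moved it to 1.38, and the interval of Gsdmd is centred near 0.

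Levels of different genes were compared per kilobase of exon. In sham mice the order of mean levels per kilobase was Nek7 (416), Gsdme (273), Pycard (86.6), Gsdmd (58.7), Casp1 (51.4), Aim2 (7.67), Casp4 (5.52), Nlrp3 (5.07), Nlrc4 (1.72) and Nlrp1b (1.52). Within this order the sham ranges overlapped between Gsdmd and Casp1, between Aim2 and Casp4, between Casp4 and Nlrp3, and between Nlrc4 and Nlrp1b, and the other neighbours were apart. In ON-CR mice Casp1 (115 ± 49.6 per kilobase, SD, n = 3) had a higher mean than Gsdmd (62.4 ± 26.0 per kilobase, SD, n = 3), and their ranges overlapped. Casp4 went to 21.6 ± 13.6 per kilobase (SD, n = 3), above the mean of Aim2 at 14.5 ± 5.85 (SD, n = 3) but with overlapping ranges. The nerve thus held far more transcript per length of the partner kinase and of gasdermin E than of any sensor, in both groups.

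The ON-CR mice differed among themselves over the 10 genes. Mouse 6 was the highest ON-CR mouse for 8 of the 10 genes, and mouse 5 the lowest for 7. The median log2 difference from the sham mean over the 10 genes was 0.81 in mouse 4, 0.35 in mouse 5 and 1.20 in mouse 6, and between -0.07 and 0.04 in the sham mice. Over all genes the same medians were between 0.01 and 0.04 in the ON-CR mice. Mouse 6 exceeded the highest sham mouse for 8 genes, mouse 4 for 7 and mouse 5 for 4. Mouse 5, in turn, was below the lowest sham mouse for 3 genes, Gsdmd, Gsdme and Nek7. The same counts were not made over all genes, so they do not set these 10 apart from other genes.

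**Figure D3:**
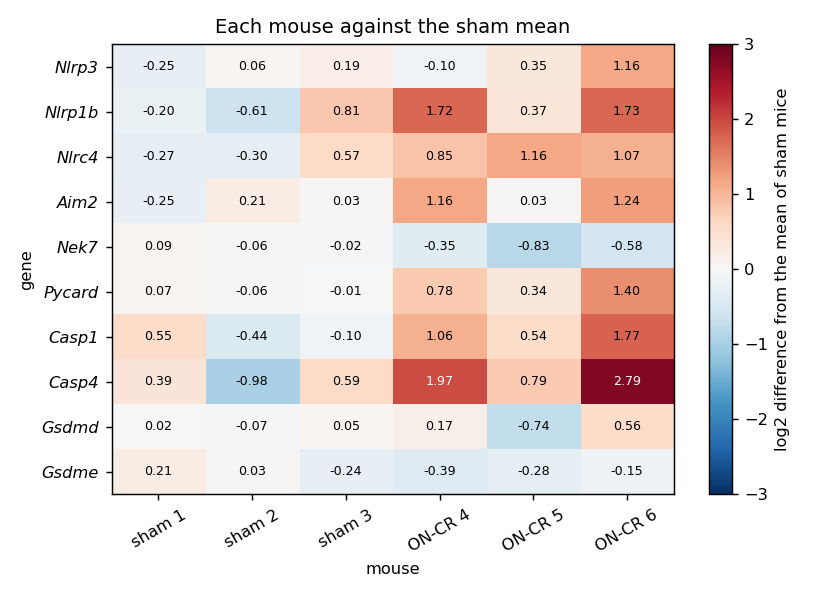
Difference of each mouse from the mean of the sham mice for each gene, on the log2(value + 1) scale, from blue (lower) to red (higher). ON-CR mice 4 and 6 are red for Nlrp1b, Aim2, Pycard, Casp1 and Casp4, mouse 5 is paler for these genes, and Nek7 is blue in all ON-CR mice.

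Summed markers of microglia and macrophages, neutrophils and monocytes, T cells and NK cells, and B cells and plasma cells were all in that order over the ON-CR mice, mouse 6 above mouse 4 above mouse 5. The microglia and macrophage sums were 33513, 28805 and 26351 in sham mice 1 to 3, and 56772, 38326 and 61306 in ON-CR mice 4 to 6. Of the 16 genes on that list, 8 passed an adjusted p of 0.05 by limma, each higher after ON-CR, and 8 did not pass. Among those higher were Cd68, a lysosomal protein of phagocytes (log2 fold change 1.80, limma adjusted p = 0.00128), and Tyrobp, a signalling adaptor of myeloid receptors (1.26, limma adjusted p = 0.00636). The homeostatic microglia genes P2ry12 and Tmem119 had log2 fold changes of -0.35 and -0.27 and did not pass. Of 9 markers of neutrophils and monocytes 0 passed by limma, while 7 had a positive log2 fold change. Csf3r, the receptor of a granulocyte growth factor, was at 170, 162 and 114 in sham mice 1 to 3 and at 462, 179 and 385 in ON-CR mice 4 to 6, without overlap (limma adjusted p = 0.121), whereas Cxcr2 had means of 2.63 and 2.72, near the level of 3 reads. The sums of that list were 680, 420 and 451 in sham mice 1 to 3, and 1004, 457 and 1291 in ON-CR mice 4 to 6. The ratio of means was 1.77 beside 1.76 for microglia and macrophages, but it did not hold for each gene. Csf3r, the only gene of that list without overlap, had means of 148 and 342. Ly6c2 had means of 39.8 and 166, with 385 in ON-CR mouse 6. S100a9 and Retnlg had log2 fold changes of -0.04 and -0.19. Of 10 T cell and NK cell markers 0 passed by limma, but all 10 had a positive log2 fold change, with a median of 1.05 beside 0.93 for microglia and macrophages. Their sums were 288, 305 and 777 in sham mice 1 to 3, and 673, 258 and 1715 in ON-CR mice 4 to 6. Of 8 B cell and plasma cell markers 0 passed, and their sums were 1440, 394 and 98667 in ON-CR mice 4 to 6. The part of these cell types in the values of the 10 genes was not tested. Over all marker lists 17 genes passed, but 1 without ON-CR mouse 6, 3 without sham mouse 2, 7 without sham mouse 1 and 11 without sham mouse 3. Of all genes, 2.1% passed with all mice, and 0.26%, 0.478%, 0.745% and 1.00% in those settings in the same order.

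When each gene was set against the summed microglia and macrophage markers of the same mouse, the groups overlapped for 7 genes, which were the 4 sensors, Pycard, Casp1 and Casp4. Pycard was at 10.3, 10.9 and 12.4 per 1000 units of marker sum in sham mice 1 to 3 and at 9.98, 10.9 and 14.2 in ON-CR mice 4 to 6. Casp1 was at 3.23, 1.87 and 2.60 per 1000 units in the sham mice and at 2.72, 2.82 and 4.13 in the ON-CR mice. The separation of Pycard between the groups was not present on this scale. Of all genes, 1.2% were higher without overlap on it, against 10.5% on the normalized values, so such a loss is not particular to Pycard. Casp4 kept the largest ratio of means, 2.06, from 0.702 ± 0.382 to 1.44 ± 0.669 per 1000 units (SD, n = 3 each), with sham mouse 3 above ON-CR mouse 5. Gsdmd, Gsdme and Nek7 were lower in all ON-CR mice than in all sham mice on this scale, as were 43.4% of all genes, and the mean marker sum was 1.76 times as high after ON-CR. Gsdmd went from 4.77 ± 0.653 to 2.76 ± 0.596 per 1000 units, and Nek7 from 104 ± 8.85 to 40.2 ± 6.03 (SD, n = 3 each). The marker sum itself differed between the groups, so the ratio has no test here. The part of marker abundance in the values of the 10 genes was not tested.

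**Figure D4:**
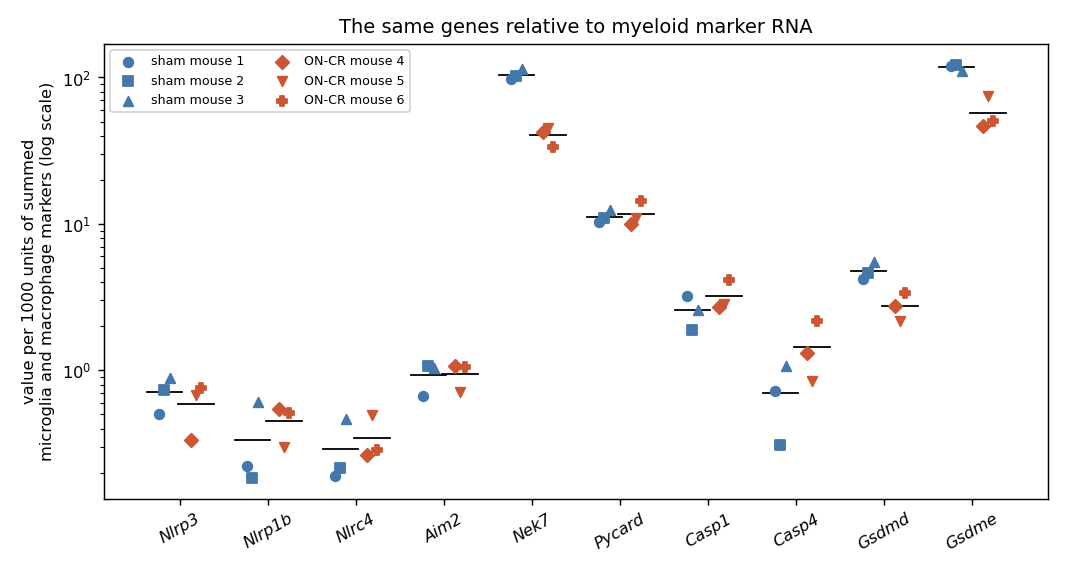
Value of each gene per 1000 units of summed microglia and macrophage markers in the same mouse (log scale), for sham mice (blue) and ON-CR mice (orange), with bars at the means. Pycard, Casp1 and the sensors overlap between the groups, while Nek7, Gsdmd and Gsdme lie lower in the ON-CR mice.

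The rest of the pathway was described with 7 lists of 105 genes, of which 94 were in the table. At an adjusted p at or under 0.05 by limma, 4 of these were higher and 2 lower after ON-CR, that is 6.38% of the 94, where 0.971% of all genes were higher and 1.13% lower. The median log2 fold change over the 94 genes was 0.22. The number that passed was 14 without ON-CR mouse 5, 0 without ON-CR mouse 6 or sham mouse 2, and 3 without sham mouse 1, sham mouse 3 or ON-CR mouse 4. Of all genes, 3.32% passed without ON-CR mouse 5, 0.26% without ON-CR mouse 6 and 0.478% without sham mouse 2. The share was 0.745% without sham mouse 1, 1.00% without sham mouse 3 and 1.79% without ON-CR mouse 4. The loss of calls is therefore not particular to this pathway.

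Neither of the cytokines that caspase-1 matures passed the test. Il18 was at 690, 661 and 570 in sham mice 1 to 3 and at 600, 396 and 521 in ON-CR mice 4 to 6, with overlap between sham mouse 3 and ON-CR mouse 4. Its log2 fold change was -0.36 (limma adjusted p = 0.346). Il1b was scarce, with 9.55, 3.54 and 1.88 in sham mice and 31.9, 5.24 and 17.7 in ON-CR mice. Its log2 change of 1.60 was the highest of the list at a mean of at least 10 (limma adjusted p = 0.332), and the groups overlapped. The list of substrates and other gasdermins had 0 of 6 genes past the threshold and a median log2 fold change of 0.15.

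Genes that trigger or sustain inflammasome activity had 2 of 22 higher, none lower and 20 that did not pass, with a median log2 fold change of 0.52. Ctsb encodes cathepsin B, a lysosomal protease whose leakage is linked to NLRP3 activation. It was at 20822, 16374 and 15794 in sham mice 1 to 3 and at 27379, 26017 and 31700 in ON-CR mice 4 to 6, a log2 change of 0.69 (limma adjusted p = 0.038). Its exons share 774 bases with those of Fdft1 on the other strand, which had means of 3002 and 1539. Ctsb was above an adjusted p of 0.05 in 5 of 16 other settings, which were the fit without a variance trend and those without sham mouse 2, sham mouse 3, ON-CR mouse 4 or ON-CR mouse 6, with values up to 0.248. Cybb, the catalytic subunit of the phagocyte NADPH oxidase, had a log2 change of 1.33 (limma adjusted p = 0.0489) and is on the X chromosome, where the groups also differed in Xist, so surgery and sex cannot be told apart. Its adjusted p was above 0.05 in 11 of 16 other settings. The lowest change on that list was that of Gbp3, at -0.37 (limma adjusted p = 0.646).

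Inhibitors and brakes had 1 gene higher, 1 lower and 15 that did not pass, with a median log2 fold change of 0.02. Serpinb1a encodes a serpin that restrains inflammatory caspases and neutrophil proteases. It was at 4933, 5611 and 4606 in sham mice 1 to 3 and at 3102, 1997 and 2564 in ON-CR mice 4 to 6, and it fell by 1.00 on the log2 scale (standard error 0.16, limma adjusted p = 0.0123). Cd300a, an inhibitory receptor of myeloid cells, rose with a log2 change of 1.45 ± 0.21 (estimate ± SE, limma adjusted p = 0.00855). Serpinb1a and Cd300a lost the threshold without sham mouse 2, without ON-CR mouse 6 and in the fit without a variance trend, and Serpinb1a also without sham mouse 1.

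Of the 10 transcription factors, 1 was higher and 9 did not pass, with a median log2 fold change of 0.21. Irf8, a factor of myeloid cells that is known to drive the NAIP genes, was at 404, 351 and 396 in sham mice 1 to 3 and at 1384, 744 and 1332 in ON-CR mice 4 to 6. Each ON-CR mouse was well above the sham range, with a log2 change of 1.53 ± 0.22 (estimate ± SE, limma adjusted p = 0.00733). Without ON-CR mouse 6, without sham mouse 2 or in the fit without a variance trend its adjusted p was above 0.05, up to 0.161. The sum of microglia and macrophage markers had means of 29556 and 52135 in sham and ON-CR mice, and its part in the values of Irf8, Cd300a, Cybb and Ctsb was not tested. Spi1, which encodes PU.1, had the lowest change of the list at -0.45 (limma adjusted p = 0.718).

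Other sensors had 0 of 14 genes past the threshold and a median log2 fold change of 0.59, from Naip2 at the top to Nod1 at -0.28 (limma adjusted p = 0.466) among those with a mean of at least 10. Other death caspases and kinases had 0 of 14 and a median of 0.36. Ripk3, a kinase of necroptosis, had the highest change there, 1.11 without overlap between the groups (limma adjusted p = 0.211), and Fadd, a death receptor adaptor, the lowest at -0.60, also without overlap (limma adjusted p = 0.126). Membrane repair genes had 1 of 11 lower, none higher and a median of -0.12. This was Anxa1, a calcium-dependent membrane-binding protein, at 2000, 1713 and 2309 in sham mice 1 to 3 and 1189, 1161 and 1345 in ON-CR mice 4 to 6 (log2 fold change -0.70, limma adjusted p = 0.0285). Its adjusted p was above 0.05 in 7 of 16 other settings. Chmp4c had the highest change of the list, 0.37 (limma adjusted p = 0.542).

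**Figure D5:**
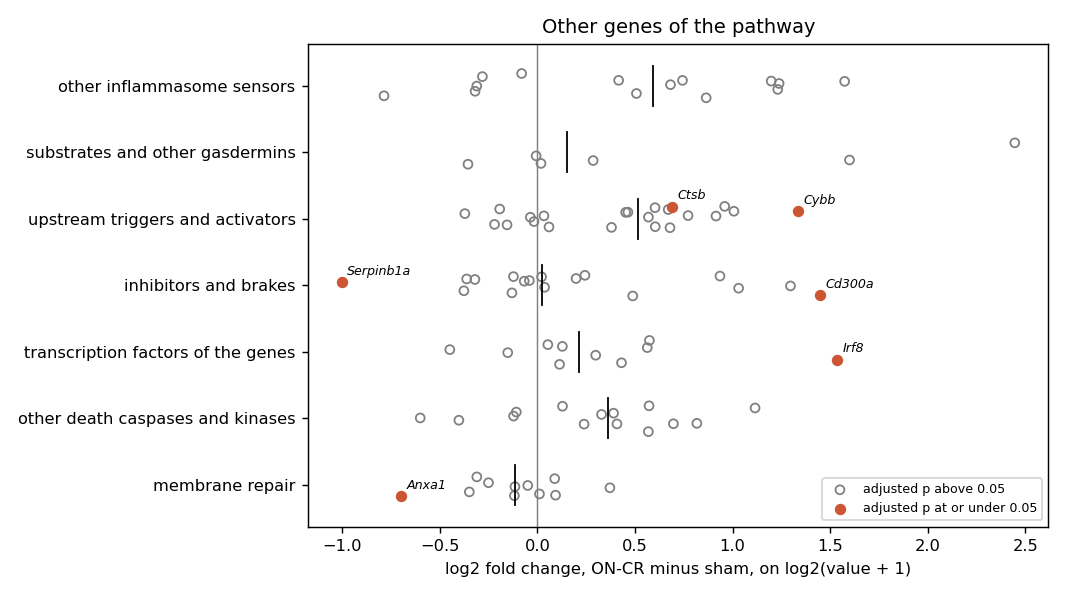
Log2 fold change after ON-CR of the 94 other pathway genes, by list, with a black bar at the median of each list. Filled points are the 6 genes past an adjusted p of 0.05, of which Cybb, Ctsb, Cd300a and Irf8 were higher and Serpinb1a and Anxa1 lower.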

How the data were processed

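Optic nerve RNA (10 ng per library) of 3 sham and 3 ON-CR mice was sequenced, and the mice were grouped by their titles. The authors aligned and quantified reads with Illumina DRAGEN and median-normalized gene counts in Partek 10.0 on mm10 Ensembl models. The deposited values are therefore a normalized signal per gene, not raw counts, so DESeq2, which the study used, was not run. Estimated reads are values divided by the value of 1 read, the most frequent low value of a library. Between 68.8% and 70.9% of values from above 0 to under 100 reads came out whole within 0.01 read, so no model of raw counts was fitted. Voom, a method made for counts, was run on these normalized values only as an alternative. It was given the same library size for every mouse, so its calls carry that limit. Intervals cover the spread between libraries, each labelled as 1 mouse. Labels do not name a shared batch.

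The test was limma (version 3.58.1, R 4.3.3) on log2(value + 1), crush against sham. The prior variance followed a trend on mean level, and p-values were adjusted by the Benjamini-Hochberg method over all 25755 genes. Fold changes are on this scale, which understates those of scarce genes. On simulated data of 25755 genes with 200 changed 4-fold, 185 were called, all in the right direction, with 6 false calls. The simulation gave every gene the same dispersion, changed only genes with a mean of at least 10 and set no mouse apart. It therefore does not give the share that would be called among the 10 genes, of which Casp4 did not pass at 3.60-fold. Gene positions, exon lengths and overlaps are from GENCODE M21 (GRCm38), and promoter windows from RefSeq (GRCm38.p6). Whether strand was used in counting is not given in the sources used here.

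The genes, the lists and the motifs were chosen with earlier results of these data known. Genes named were the 10, the genes of the 7 pathway lists with an adjusted p at or under 0.05, those with the highest and lowest change of each list at a mean of at least 10, Il1b and Il18, Xist, Ddx3y, and markers named for their level. Nlrp1a, Gm45205, Gm28501 and Fdft1 were added for shared reads, and Csf3r was named after its values were seen. Alternatives were pseudocounts of 0.5 and 2, a mean of at least 10, trimmed-mean, upper-quartile and total scaling, no variance trend, a robust fit, voom with quality weights and leaving out each mouse. Pseudocount 0.1 was added after the data were seen.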

Additional observations from a re-analysis of the deposited data

How the results depend on the processing

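No paired analysis was possible because the sham and ON-CR mice carry different numbers. The count of the 10 genes past an adjusted p of 0.05, which was 0, was 1 in the robust fit and 1 under voom with quality weights, and 0 to 3 when each mouse was left out, where 0.26% to 3.32% of all genes passed. The count with an unadjusted p at or under 0.05 and at least a 2-fold change, which was 3, was 0 to 5 with a mouse left out (3.86% to 6.08% of all genes), and the 4 genes without overlap became 5 to 8 (28.4% to 34.4% of all genes, against 21.6% with all mice). Of the other pathway genes, 6 passed with all mice, 0 without a variance trend, 10 under voom and 0 to 14 with a mouse left out. Of the marker genes, 17 passed with all mice, 0 without a variance trend and 1 to 23 with a mouse left out. The fit without a variance trend called 7 genes of the whole table, against 540. The log2 fold change of Gsdmd, -0.0073, was 0.022 with upper-quartile scaling, 0.12 with equal library totals and 0.12 under voom, and -0.29 to 0.36 with a mouse left out. The cause was not tested. The other 9 genes kept the sign of their change in all settings tried. Equal library totals moved the median log2 fold change of all genes from 0.03 to 0.15, and the calls from 250 higher and 290 lower to 421 higher and 195 lower. With 3 mice a group and 5.31 to 31.2 units for Nlrp1b and Nlrc4, the scarce sensors are limited by reads as well as by mice.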
